A study of Mus musculus with 12 samples.

Results

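Aged microglia with a high level of phosphorylated ERK1/2, the activated form of the kinase pair at the end of the MAPK cascade, were compared with microglia from young adult mice. The 2 groups were chosen by their labels alone, as the 4 samples of P-ERK1/2High microglia (samples 2, 5, 7 and 8) and the 3 retained samples of microglia from adult CNS (samples 1, 4 and 10), which makes 7 of the 12 samples of the series. All 770 genes of the panel were used. The mice were of C57BL/6 background and, apart from tamoxifen, untreated, the adult animals 12 to 20 weeks old and the aged animals over 80 weeks old. All carried the Cx3cr1CreERT2 allele with its linked eYFP reporter and had received tamoxifen, shortly before the experiment in adult and long before it in aged animals, and each sample pooled the CNS of 1 male and 1 female. After enrichment with CD11b beads, fixation and permeabilization, microglia were gated as YFP+, CD45Intermediate and Ly6G-. Only the aged cells were then divided by P-ERK1/2, so that age, the time since tamoxifen and the P-ERK1/2 gate cannot be told apart in this comparison. The aged P-ERK1/2Low samples (samples 3, 6, 9 and 12) had the same age and the other side of the gate, and their values are given for some of the genes after the main comparison. Phosphorylation itself is not read by the panel, which leaves the P-ERK1/2 gate unchecked at the RNA level.

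ERK1/2 is activated in microglia downstream of CSF1R, the receptor for CSF-1 and IL-34 that keeps these cells alive. Active ERK1/2 phosphorylates transcription factors of the ETS and AP-1 families and thereby drives immediate early genes, which are transcribed within minutes of a stimulus. Microglia at rest express a homeostatic set of genes (P2ry12, Tmem119, Sall1, Cx3cr1), and in aging and disease they can move toward a disease-associated state marked by Spp1, Axl, Csf1, Clec7a and Apoe. Autophagy, in which cytoplasm is enclosed in a double membrane and delivered to the lysosome, is controlled by kinases that lie downstream of the same receptor.

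RNA was counted with the NanoString nCounter, which counts hybridized color-coded probes without amplification. The deposited values are counts multiplied by a factor per sample that equalizes the geometric mean of 13 housekeeping genes. Total counts were 650964 to 1539936 in P-ERK1/2High and 137980 to 326575 in adult samples, a ratio of medians of 5.45, and 589 to 673 against 417 to 560 genes exceeded background (the mean plus 2 SD of the 8 negative control probes of that sample). The P-ERK1/2Low samples, at 123798 to 157209 counts and 410 to 484 genes above background, lay with the adult samples. The depth of counting thus moved with the groups, and its part in the results was not tested. Among the housekeeping genes, Supt7l, which encodes a subunit of a transcription coactivator complex, stood at 741, 680.5, 887 and 859 in the P-ERK1/2High samples and at 74.9, 102 and 106 in the adult samples, and Gusb and Mto1 also passed the call threshold upward and Lars downward. The fourth sample labelled adult, number 11, carried the label of poor quality and was left out. Its total count was 1464449, within the range of the P-ERK1/2High samples, its brightest positive control gave 5896 counts against 23043 to 38742 in the other samples, and on 269 of the 284 genes called below it was nearer to the P-ERK1/2High mean than to the mean of the other adult samples. With sample 11 among the adult samples, 49 genes were called, all of them higher, and none had an adjusted p under 0.05 in limma (150 had an unadjusted p under 0.05). These values do not settle whether sample 11 is an adult sample of poor quality or one with a wrong label, and the meaning of the count with it depends on that. Every result below rests on the 3 retained adult samples. P-ERK1/2High sample 7 held the lowest P-ERK1/2High value in 97 of the genes called higher and the highest in 35 of those called lower.

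Among genes that microglia express, Csf1r and Tyrobp were above background in all 7 samples. P2ry12 and Cx3cr1, given further on, were above it in 2 of 3 adult samples and all 4 P-ERK1/2High samples. Csf1r, the survival receptor, had values of 1838, 1498, 1195 and 1683 in P-ERK1/2High and 1829, 1655 and 2053 in adult samples, a log2 difference of -0.26 (SE 0.25, adjusted p = 0.41). Tyrobp, the signaling adaptor of TREM2, stood at 3085 to 4954 and 4556 to 6065. Neither gene passed the call threshold. Some defining markers of other cells, among them Mog of oligodendrocytes, Gria1 of neurons, Cd8a and Cd6 of T cells and Ly6g of neutrophils, were above background in none of the 7 samples. Others, among them Rbfox3 of neurons, Kcnj10 of astrocytes, Esam of endothelium and Cd3e of T cells, were above it in all 4 P-ERK1/2High samples and were called higher there, as given further on.

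P-ERK1/2High microglia differed from adult microglia in 284 of the 770 genes (36.9%), of which 225 were higher (29.2%) and 59 were lower (7.66%). A gene was called at p under 0.01 in limma on log2(value + 1) with a log2 difference beyond 1, and p-values were adjusted across the panel by the Benjamini-Hochberg method. In 387 genes (50.3%) the 4 P-ERK1/2High values did not overlap the 3 adult values, 270 of them higher (35.1%) and 117 lower (15.2%). The median log2 difference of all genes was 0.35, so that a gene at 0 lay below the middle of the panel. This center depends on the scaling: it was 1.14 in unscaled counts, 1.05 when only the 6 housekeeping genes that varied most alike were used (called most stable below, although Lars, which was called lower, is among them), -0.04 with median-of-ratios scaling and -0.06 with quantile normalization. The split followed, with 160 genes higher and 120 lower under median-of-ratios scaling, 142 and 138 under quantile normalization and 353 and 5 with the 6 housekeeping genes. Of the 225 genes called higher, 45 were above background in no adult sample, 36 of which were above it in all 4 P-ERK1/2High samples, and where such a gene is named the fold is given as a lower bound against the adult background, if that bound is above 1. Of the 59 genes called lower, 11 were above background in no P-ERK1/2High sample. In all 19 settings tried besides the inclusion of sample 11, 106 of the 225 higher calls and 2 of the 59 lower calls were held. Some calls described below were held in 13 or fewer of the 20 settings. These included the lower calls of Csf3r (9), Atf3 and Rpl9 (10), Fcrls and Lgmn (11), Ercc2 (12) and Hmox1, Irf3, Bnip3 and Jarid2 (13). They also included the higher calls of P2ry12 and Fos (9), Gjb1 (10), Trem3 (11) and Kdm3a (12). Of the genes described below with a measured difference, Bdnf, Blm, Brca1, Cdc25a, Cd3e, Gstm1 and Trem3 were above background in 1 of the 3 adult samples, so that their differences rest on adult values near the background.

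**Figure D1:**
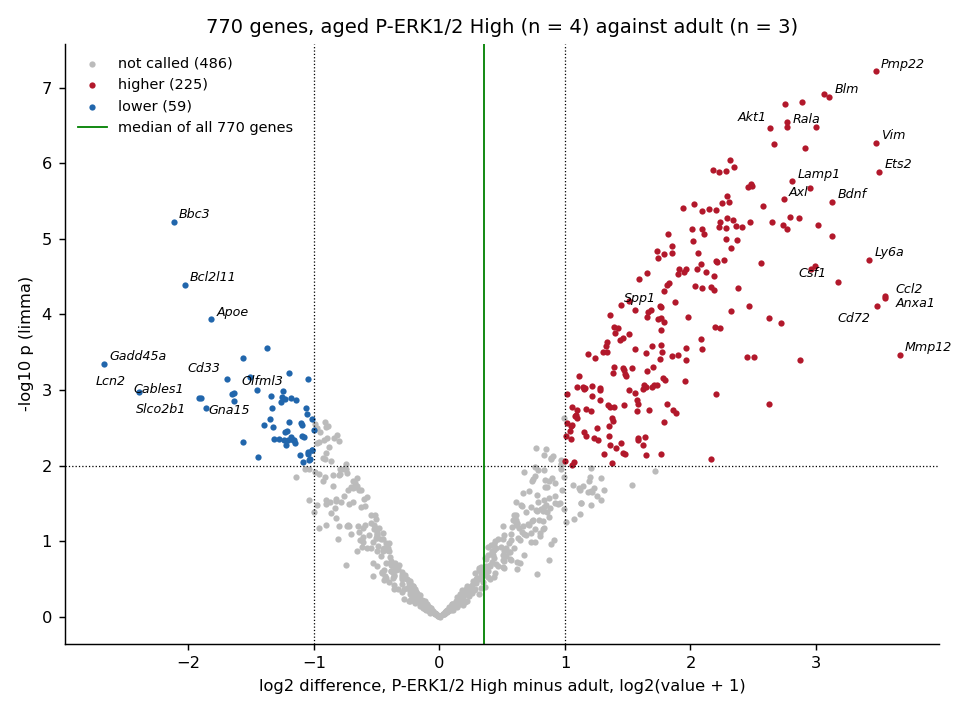
Each point is one of 770 genes, with the log2 difference between P-ERK1/2High (n = 4) and adult (n = 3) microglia on the x axis and -log10 of limma's p on the y axis. Red marks the 225 genes called higher, blue the 59 called lower and grey the other 486, the dotted lines are the call thresholds and the green line is the median of all genes at 0.35.

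The largest rise on the panel was that of Mmp12, a macrophage elastase that cleaves extracellular matrix. Mmp12 had values of 54885, 94274, 8502 and 83267 in P-ERK1/2High samples 2, 5, 7 and 8 and of 2702, 5004 and 3027 in adult samples 1, 4 and 10. All P-ERK1/2High values lay above all adult values, although sample 7 was closer to the adult range than to the other 3. The log2 difference was 3.67 (SE 0.71, adjusted p = 0.0019). Ccl2, the chemokine that recruits monocytes, stood at 4884, 8119, 1249 and 6275 against 319.9, 282 and 507, a difference of 3.55 (SE 0.56, adjusted p = 0.0005). Anxa1, a calcium-dependent phospholipid-binding protein that restrains inflammation, stood at 9458, 14366, 2496 and 10659 against 604, 1097 and 437, a difference of 3.55 (SE 0.55, adjusted p = 0.00048). In these genes sample 7 was again the lowest of its group, without overlap between groups.

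Ets2, an ETS-family transcription factor whose activity is raised by ERK phosphorylation, had values of 2665, 3803, 1469.9 and 2647 in P-ERK1/2High and 147, 242 and 296 in adult samples, a log2 difference of 3.51 (SE 0.36, adjusted p = 5.6e-05). Vim, which encodes the intermediate filament vimentin, stood at 208654, 155575, 129257 and 217835 against 12554, 24935 and 12188, a difference of 3.48 (SE 0.33, adjusted p = 3.8e-05). Pmp22, a membrane protein best known from peripheral myelin, stood at 11689.6, 15250.2, 9526 and 15088 against 994, 1169 and 1265, a difference of 3.47 (SE 0.26, adjusted p = 2.5e-05). For Ets2, Vim and Pmp22 every P-ERK1/2High value lay far above every adult value, and Vim was called also with adult sample 11 included. Cd72, an inhibitory lectin-like receptor, stood at 1489, 1444, 265 and 1636 against 81.7, 101 and 79.1, with a difference of 3.49 (SE 0.56, adjusted p = 0.000598). Csf1, a ligand of CSF1R, stood at 6656, 19859, 3968 and 9126 against 842, 1248 and 741, a difference of 3.18 (SE 0.47, adjusted p = 0.00035). Bdnf, the brain-derived neurotrophic factor, stood at 416, 985, 465 and 549 against 65.8, 89.7 and 44.5, a difference of 3.13 (SE 0.35, adjusted p = 9.1e-05). Ly6a (Sca-1), a surface protein induced by interferon, was above background in no adult sample and was at least 6.41-fold higher in P-ERK1/2High microglia, where it stood at 482, 697, 140.4 and 522.

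**Figure D2:**
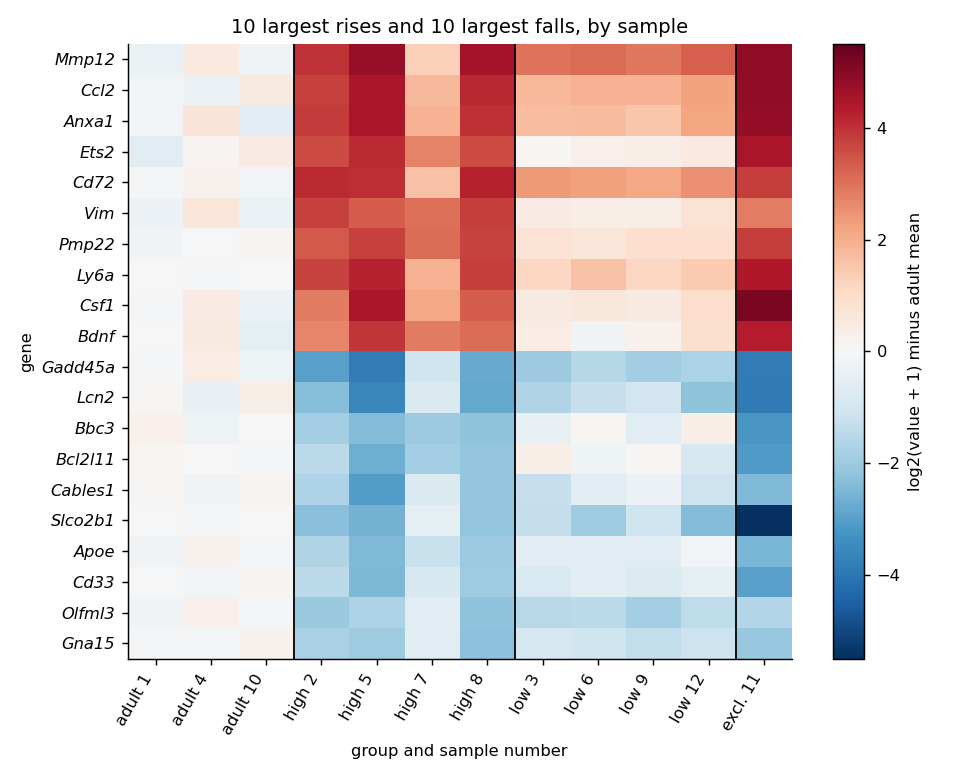
Rows are the 10 genes with the largest rise and the 10 with the largest fall, and columns are the samples by group and number, with the P-ERK1/2Low samples and the excluded adult sample 11 for comparison. Color gives log2(value + 1) minus the mean of the 3 adult samples. P-ERK1/2High sample 7 is paler than samples 2, 5 and 8 in most rows, and the excluded sample has the colors of the P-ERK1/2High samples.

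AP-1, the dimer of FOS and JUN proteins whose members are induced by ERK1/2, binds the letters TGANTCA, which are their own reverse complement and were searched in RefSeq promoter windows (GRCm38.p6, 250 bases before to 50 after each transcript start, 32851 windows). The letters were present in 7.81% of all windows, in 8.75% of 800 windows that matched genes of the panel, in 7.11% of 239 windows that matched 174 of the genes called higher and in 13.6% of 81 windows that matched 50 of the genes called lower. The windows below show the matches in Mmp12, the largest rise, and in Srxn1, an antioxidant gene described further on whose window holds 2 of them. The capitals mark TGANTCA, each sequence reads 5′ to 3′ on the plus strand, and the motif starts 44, 102 and 45 bases before the transcript start. They are matches of letters, and binding was not measured.
Mmp12, chr9:7347319-7347347: gacatcaacagTGAGTCAgatagaggatt
Srxn1, chr2:152105411-152105439: ctcggagggccTGAGTCAccacgctgtgc
Srxn1, chr2:152105468-152105496: caaattcacccTGAGTCAgcggccgggcg

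Gadd45a, a stress-inducible p53 target that slows the cell cycle, had values of 102, 55.8, 387 and 119 in P-ERK1/2High and 751, 1092 and 665 in adult samples, a log2 difference of -2.67 (SE 0.53, adjusted p = 0.0024). Lcn2, an iron-siderophore-binding acute-phase protein, stood at 112, 46.5, 326 and 79.8 against 592, 437 and 721, with a difference of -2.39 (SE 0.54, adjusted p = 0.0046). Both genes fell without overlap, and in both sample 7 was the highest of the P-ERK1/2High samples. Bbc3 (PUMA), a BH3-only trigger of apoptosis, was above background in no P-ERK1/2High sample, where it stood at 23.1, 15.7, 21.3 and 17.7, and had values of 104, 71 and 89 in adult samples, so that it was at least 2.76-fold lower (adjusted p = 0.00011). Bcl2l11 (BIM), another BH3-only protein, stood at 46.3, 19.3, 34.8 and 27.9 against 136, 125 and 124, a difference of -2.03 (SE 0.30, adjusted p = 0.00037). Apoe, the main lipid carrier of the brain, stood at 1063, 628, 1422 and 839 against 2940.5, 3956 and 3177, a difference of -1.82 (SE 0.31, adjusted p = 0.00081). Apoe and Bcl2l11 were called lower in all 19 settings tried other than the inclusion of sample 11, and Bbc3 in the 18 of them that gave it a value, since its mean fell short of the filter at 50. Bcl2l11 was above background in 2 of 4 P-ERK1/2High samples.

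Cd33, an inhibitory sialic acid receptor, had values of 76.7, 37.2, 116 and 53.2 against 213, 189 and 235, a log2 difference of -1.69 (SE 0.36, adjusted p = 0.0034). The homeostatic genes Olfml3, which encodes a secreted olfactomedin-like protein, and Slco2b1, which encodes an organic anion transporter, differed by -1.65 (SE 0.37, adjusted p = 0.0047) and -1.90 (SE 0.44, adjusted p = 0.0052). Cables1, a partner of cyclin-dependent kinases, and Gna15, a G protein subunit of blood cells, differed by -1.92 (SE 0.44, adjusted p = 0.0052) and -1.64 (SE 0.37, adjusted p = 0.0046). Slco2b1 and Cables1 were each above background in 1 of 4 P-ERK1/2High samples, so that the sizes of their differences rest on values near the background.

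Among MAPK and PI3K-AKT kinase genes, 5 of 19 rose and 2 fell, and their median log2 difference was 0.16 beside 0.35 over all genes. Without P-ERK1/2High sample 5 the counts were 4 and 0. Map2k1 and Braf, kinases upstream of ERK1/2, did not pass the threshold: Map2k1 (MEK1) stood at 628 to 837 in P-ERK1/2High and 633 to 724 in adult samples (log2 difference 0.08, adjusted p = 0.799), and Braf at 167 to 212 and 175 to 216 (adjusted p = 0.71). Akt1, the broadly expressed kinase of survival and growth, had values of 7183, 6650.2, 6963 and 8284 against 1103, 1385 and 1038 and rose by 2.63 (SE 0.24, adjusted p = 2.9e-05). Akt2, the isoform best known from insulin signaling, had values of 158, 65, 107 and 106 against 263, 220.1 and 237 and changed by -1.20 (SE 0.31, adjusted p = 0.00901). Neither pair of groups overlapped. The lower call of Akt2 was held in 15 of 20 settings, and was lost with the 6 housekeeping genes (-0.49), in the plain test, with sample 11 included (-0.58), without P-ERK1/2High sample 5 (-0.97) and without adult sample 1 (-1.13). Pik3cg, the catalytic PI3K subunit activated by G protein-coupled receptors, rose by 2.16 (SE 0.33, adjusted p = 0.00039). Rala, a small GTPase that acts in exocytosis and in the start of autophagy, was among the tightest differences: it stood at 2307, 2719, 2092 and 2558 against 281, 371 and 415, a difference of 2.77 (SE 0.25, adjusted p = 2.9e-05).

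Of the immediate early and ERK target genes, 7 of 14 rose and 1 fell, beside 29.2% and 7.66% of the panel. Their median was 0.94 beside 0.35. Besides Ets2, Ptgs2 (COX-2, which makes prostaglandin precursors) rose from 447, 656 and 309 to 4693, 5286, 1938 and 4977 and Dusp7, a phosphatase that inactivates ERK1/2, from 159, 161 and 175 to 1199, 1486, 619.9 and 1561, by 3.13 (SE 0.40, adjusted p = 0.00013) and 2.79 (SE 0.33, adjusted p = 0.00011) on the log2 scale. Fos, the AP-1 subunit, stood at 2016, 2270.1, 394 and 1747 against 427, 329.6 and 425. Its difference of 1.77 (SE 0.53, adjusted p = 0.019) passed the threshold, but sample 7 lay within the adult range. Egr1, a zinc finger factor induced within minutes, stood at 819, 919.9, 408 and 808 against 479, 424 and 593 and was not called (log2 difference 0.52, adjusted p = 0.201). Atf3, a stress-induced repressor, fell, with a log2 difference of -1.11 (SE 0.34, adjusted p = 0.019), a call held in 10 of 20 settings.

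Autophagy genes held 12 of 24 members called higher and 2 called lower, beside 29.2% and 7.66% of the panel. Their median log2 difference was 0.99 beside 0.35 over all genes. The median stayed above that of all genes under each scaling tried, though under quantile normalization 7 were higher and 5 lower. Atg3, the enzyme that transfers LC3 to lipid, had values of 1982, 3084, 2145 and 2426 in P-ERK1/2High and 417, 543 and 544 in adult samples, a difference of 2.25 (SE 0.26, adjusted p = 9.1e-05). Atg5, part of the complex that completes this transfer, stood at 689, 1273, 844 and 940.1 against 231, 259 and 306, a difference of 1.79 (SE 0.27, adjusted p = 0.00041). Atg9a, which supplies membrane to the growing autophagosome, rose by 2.09 (SE 0.40, adjusted p = 0.0017). In Atg3, Atg5 and Atg9a the groups did not overlap, and P-ERK1/2High sample 5 was the highest in each. Map1lc3a, one of the LC3 proteins that coat the autophagosome, stood at 642, 644, 558 and 560.0 against 157, 149 and 161 and rose by 1.94 (SE 0.22, adjusted p = 9.5e-05). Vamp7, a SNARE of vesicle fusion, and Becn1 (Beclin 1), which starts the membrane with a lipid kinase, rose by 2.34 (SE 0.28, adjusted p = 0.00011) and 1.10 (SE 0.28, adjusted p = 0.0082). Ulk1, the kinase that initiates autophagy, stood at 103, 114, 159 and 55.8 against 247, 304 and 232 and fell, with a difference of -1.35 (SE 0.34, adjusted p = 0.0084). Bnip3, a receptor for the removal of mitochondria, differed by -1.22 (SE 0.33, adjusted p = 0.011). These 2 lower calls were held in 15 of 20 settings for Ulk1 and 13 for Bnip3, and both were lost with the 6 housekeeping genes (14 higher and 0 lower in the list), after background subtraction (12 and 0), under a plain unequal-variance test (11 and 0), without adult sample 4 (12 and 0) and with sample 11 included (2 and 0). Sqstm1 (p62), the cargo adaptor that is itself degraded by autophagy, stood at 2864, 4632, 5930.2 and 3629 against 5484, 5717 and 6110.2 and was not called (log2 difference -0.49, adjusted p = 0.18).

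Of 15 lysosomal genes, 3 were higher (20.0%, below the 29.2% of the panel) and 2 lower, with a median of 0.19 beside 0.35. Lamp1, a major lysosomal membrane protein, had values of 30641, 62085, 31092 and 42101 in P-ERK1/2High and 5009.7, 6319 and 5764 in adult samples, without overlap and with a difference of 2.81 (SE 0.30, adjusted p = 7.0e-05). Man2b1, a mannosidase of glycoprotein breakdown, rose by 2.23 (SE 0.27, adjusted p = 0.00011). Cd68, a lysosomal membrane protein of phagocytes, stood at 14533, 27877, 16872 and 23411 against 7605, 8226 and 9008 and differed by 1.28 (SE 0.28, adjusted p = 0.0042), but was lower in P-ERK1/2High microglia under quantile normalization. Grn, which encodes progranulin, stood at 2857, 1635, 2974 and 2595 against 5445, 5416 and 5843 and fell, with a difference of -1.18 (SE 0.27, adjusted p = 0.0051). Lgmn, a lysosomal cysteine protease, differed by -1.05 (SE 0.32, adjusted p = 0.019). Grn and Lgmn fell without overlap between groups, and their lower calls were held in 17 and 11 of 20 settings.

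**Figure D3:**
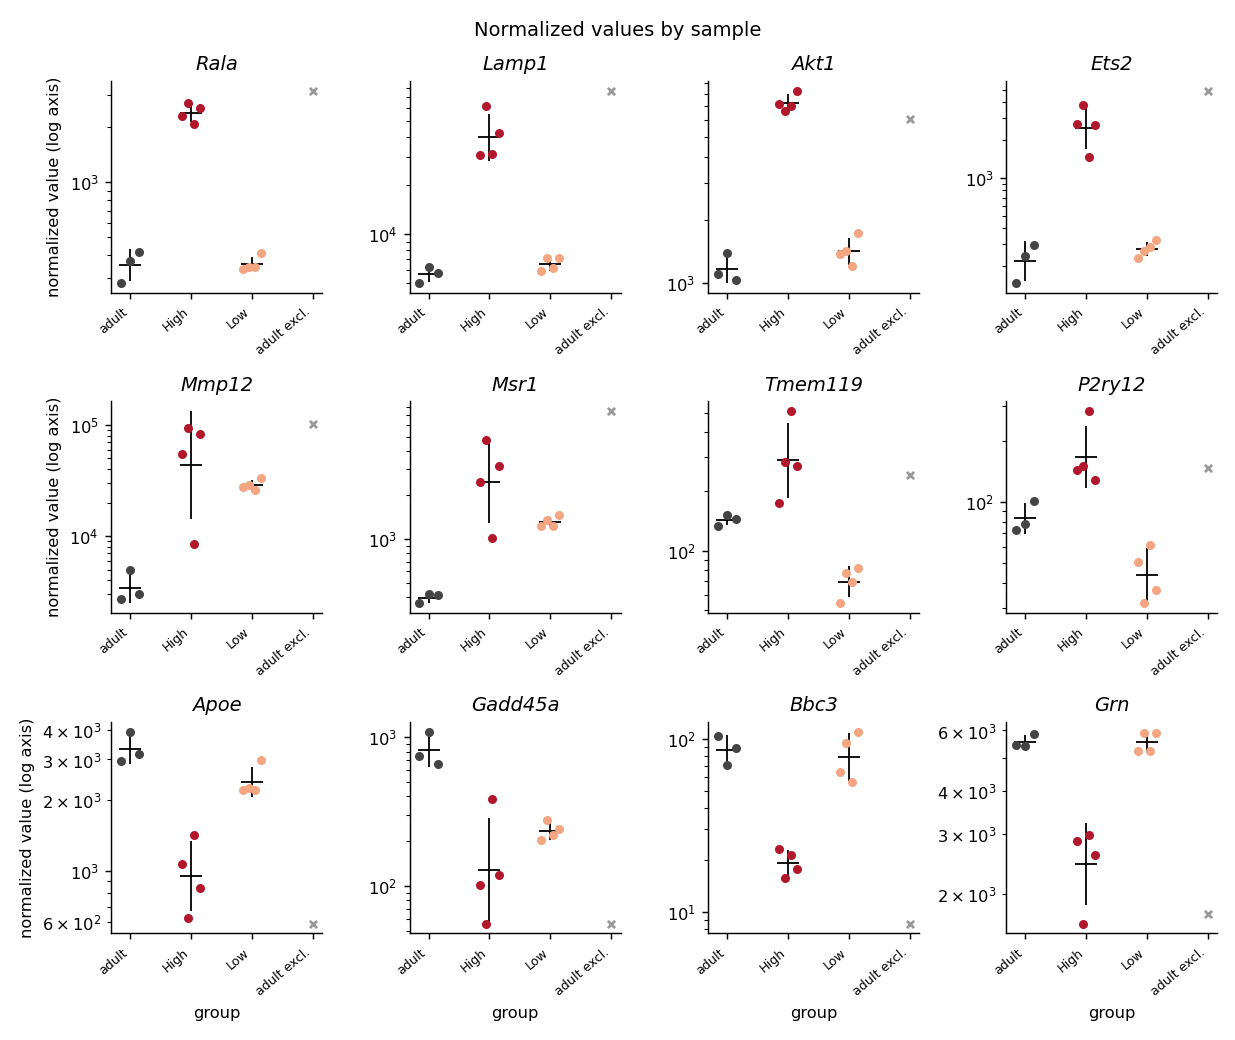
Each panel gives the normalized values of one gene on a log axis, with a point per sample, and horizontal marks and bars show the mean ± SD on the log2 scale of the adult (n = 3), P-ERK1/2High (n = 4) and P-ERK1/2Low (n = 4) samples. The cross is the excluded adult sample 11. In Rala, Lamp1, Akt1 and Ets2 the adult and P-ERK1/2Low samples sit together below P-ERK1/2High, in Mmp12 and Msr1 P-ERK1/2Low lies between, and in Tmem119 and P2ry12 its points are at or near background, which 1 and none of the 4 samples exceeded.

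Of 11 disease-associated microglia genes, 5 rose (45.5%) and 1 fell (9.09%), beside 29.2% and 7.66% of the panel. Their median was 0.86, which lay above that of all genes under each scaling but quantile normalization. Spp1 (osteopontin), a secreted glycoprotein of phagocytic macrophages, had values of 75182, 93889.9, 113517 and 97535 in P-ERK1/2High and 21573, 39408 and 25330.5 in adult samples. It differed by 1.76 (SE 0.28, adjusted p = 0.000598), whereas quantile normalization turned its direction. Axl, a receptor tyrosine kinase that clears apoptotic cells, stood at 4757, 6356, 3482 and 5613 against 678, 1050.4 and 558, a difference of 2.74 (SE 0.31, adjusted p = 9.1e-05). Clec7a (dectin-1), a receptor for beta-glucans, stood at 2919, 6209, 1912 and 4592 against 681, 741 and 929, a difference of 2.19 (SE 0.38, adjusted p = 0.00098). Igf1, a growth factor that microglia secrete, rose by 2.45 (SE 0.48, adjusted p = 0.0020). Trem2, the lipid-sensing receptor of the disease-associated state, stood at 3119, 5228, 2616 and 3948 against 2936, 3552 and 3407, with overlapping groups and a log2 difference of 0.13 (adjusted p = 0.73, 95% interval -0.50 to 0.76). Itgax (CD11c) stood at 235, 394, 134 and 291 against 99.8, 171 and 143 and was not called either (adjusted p = 0.076). Apoe, which is counted among these genes, was the member that fell.

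Of 16 homeostatic microglia genes, 1 rose (6.25%) and 3 fell (18.8%), beside 29.2% and 7.66% of the panel, with a median of 0.11. Without P-ERK1/2High sample 5, 0 rose and 2 fell. P2ry12, the receptor by which microglia sense ADP, stood at 144, 151, 282 and 128 in P-ERK1/2High and 72.6, 78 and 101 in adult samples and only just passed the threshold, at 1.00 (SE 0.31, adjusted p = 0.022). Tmem119, a surface marker of microglia, stood at 175, 282, 509.8 and 267 against 134, 153 and 146, and Sall1, a transcription factor of microglial identity, at 192, 448, 347 and 256 against 157, 148 and 143. Neither pair of groups overlapped, but the log2 differences of 0.99 and 0.98 missed the threshold of 1 (adjusted p = 0.033 and 0.022). Cx3cr1, the fractalkine receptor whose locus drives the reporter, stood at 142, 247, 95.5 and 152 against 77.1, 72.2 and 106, was above background in 2 of 3 adult samples and was not called. Fcrls, an Fc receptor-like gene, fell beside Olfml3 and Slco2b1, with values of 131, 225, 541 and 152 against 601, 851 and 563 and a difference of -1.57 (SE 0.44, adjusted p = 0.014).

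Phagocytic receptor genes included 6 of 18 that rose and 1 that fell, with a median of 0.78. Dock1, which remodels actin for engulfment, stood at 887, 949, 597 and 988 in P-ERK1/2High and 86.2, 133 and 119 in adult samples, a difference of 2.91 (SE 0.28, adjusted p = 4.02e-05), and was called also with sample 11 included. Msr1, a scavenger receptor for modified lipoproteins, stood at 2443, 4743, 1012 and 3159.8 against 363, 422 and 413, a difference of 2.63 (SE 0.44, adjusted p = 0.000797). Itgb5, the integrin subunit that with alpha V binds apoptotic cells, stood at 856, 566, 1308 and 715 against 2139.6, 2737 and 2458 and fell, with a difference of -1.57 (SE 0.31, adjusted p = 0.00204). Among inhibitory receptors, 2 of 11 rose and 2 fell (median -0.27). Cd84, a homophilic receptor of the SLAM family, rose from 1150.3, 1492 and 1359 to 4329.9, 6043, 3387 and 5278, by 1.81 (SE 0.27, adjusted p = 0.00037), beside Cd72. Of 11 complement genes 2 rose (median 0.32), namely C3ar1, the receptor for C3a, and Itgam (CD11b), part of complement receptor 3, by 1.62 (SE 0.36, adjusted p = 0.0043) and 1.33 (SE 0.26, adjusted p = 0.0018). The C1q subunits, which tag synapses and debris, were not called, with log2 differences of -0.04 for C1qa, 0.62 for C1qb and 0.38 for C1qc.

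Cytokine and chemokine genes held 6 of 19 that rose, with a median of 0.86. The count was 3 higher and 2 lower under median-of-ratios scaling, 4 and 4 under quantile normalization and 3 and 0 without adult sample 1. Ccl2 and Csf1 led the set. Tnf and Il1b, cytokines of inflammation, were not called: Tnf stood at 548, 416, 263 and 545 in P-ERK1/2High and 551, 406 and 637 in adult samples (adjusted p = 0.46), and Il1b at 98.6, 112, 109 and 71 against 72.6, 33.8 and 59.3, where no adult sample exceeded background (adjusted p = 0.042). In the Toll-like receptor and NF-kB set, 5 of 19 rose and 3 fell (median 0.33). Irak1, a kinase that relays Toll-like receptor signals, rose from 134, 192 and 146 to 656, 994, 674 and 809.6, by 2.31 (SE 0.26, adjusted p = 9.1e-05), while its relative Irak2 stood at 142, 137, 287 and 139 against 417, 392 and 469 and fell, with a difference of -1.34 (SE 0.31, adjusted p = 0.0049). Nfkbia, the inhibitor that NF-kB induces, rose by 2.10 (SE 0.32, adjusted p = 0.00039), and Ikbkg (NEMO), the regulatory subunit of the kinase that degrades it, differed by -1.25 (SE 0.28, adjusted p = 0.0044). The direction of Ikbkg was lost when sample 11 was included. Tlr2, the receptor for bacterial lipoproteins, stood at 122, 141, 286 and 141 against 234, 214 and 306, with sample 7 alone inside the adult range, and was not called (adjusted p = 0.14). Tlr7, the sensor of single-stranded RNA, stood at 454, 2086, 907 and 870.4 against 322, 346 and 497 and was not called (log2 difference 1.29, adjusted p = 0.033).

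Of 22 interferon response genes 8 were higher (36.4%) and 2 lower (9.09%), with a median of 0.37, close to the panel's 29.2%, 7.66% and 0.35. Ifih1 (MDA5), a sensor of double-stranded RNA, stood at 465, 618, 632 and 498 in P-ERK1/2High and 90.8, 69.9 and 98.8 in adult samples, a difference of 2.67 (SE 0.25, adjusted p = 3.8e-05). Ifitm3, which blocks viral entry, rose by 1.80 (SE 0.38, adjusted p = 0.0035). Rsad2 (viperin), an antiviral enzyme and one of the most strongly interferon-induced genes, and Irf3, a transcription factor that turns on interferon, fell, with differences of -1.64 (SE 0.38, adjusted p = 0.0054) and -1.09 (SE 0.28, adjusted p = 0.0096). Rsad2 was above background in 2 of 4 P-ERK1/2High samples. Of 9 antigen presentation genes 2 fell (median 0.27), including Mr1, which presents vitamin B metabolites, with 70.6, 58.6, 82 and 54.5 against 143, 175 and 141 and a difference of -1.20 (SE 0.25, adjusted p = 0.00296).

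Of 18 replication and cell cycle genes 10 rose (55.6%, beside 29.2% of the panel), with a median of 1.44 beside 0.35. Without sample 7 there were 15 that rose, while 242 of all 770 genes did. Mcm6, a subunit of the replicative helicase, stood at 1249, 1733, 489.6 and 1482 in P-ERK1/2High and 113, 196 and 131 in adult samples, a difference of 2.96 (SE 0.42, adjusted p = 0.00026). Cdc25a, the phosphatase that releases cyclin-dependent kinases for S phase, stood at 506, 634, 456 and 578 against 74.9, 78 and 64.2, a difference of 2.89 (SE 0.24, adjusted p = 2.5e-05). Top2a, a topoisomerase of dividing cells, stood at 989.6, 1393, 268 and 1104 against 141, 157 and 124, a difference of 2.51 (SE 0.49, adjusted p = 0.00201). Sample 7 was the lowest of the P-ERK1/2High samples in all of these, and the groups did not overlap. Of 9 ribosomal protein genes 5 rose (55.6%) and 1 fell (11.1%), beside 29.2% and 7.66% of the panel. Their median was 1.44, which under quantile normalization was 0.06 beside -0.06 for all genes. Rpl28 and Rpl29 rose by 2.46 (SE 0.27, adjusted p = 7.1e-05) and 2.34 (SE 0.24, adjusted p = 5.6e-05) and were called also with sample 11 included, while Rpl9 stood at 1772, 725, 1191 and 1411 against 2453, 2629 and 2446 and fell, with a difference of -1.05 (SE 0.31, adjusted p = 0.018). The lower call of Rpl9 was held in 10 of 20 settings. Ribosomal protein genes have many processed pseudogenes with near-identical sequence, and what a probe captures from them cannot be separated here.

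DNA repair genes held 14 of 42 that rose and 1 that fell (median 0.46). Blm, the helicase mutated in Bloom syndrome, stood at 581, 417, 573 and 557 in P-ERK1/2High and 56.7, 74.5 and 51.9 in adult samples, a difference of 3.11 (SE 0.25, adjusted p = 2.5e-05), and was called in every setting tried, sample 11 included. Brca1, which acts in homologous recombination, stood at 306, 449.6, 240.3 and 359.8 against 38.6, 40.8 and 42, a difference of 3.00 (SE 0.27, adjusted p = 2.9e-05). Ercc2, a helicase of nucleotide excision repair, was the member that fell, at 91.3, 50.03, 83.1 and 72.2 against 149.8, 139.7 and 148 (adjusted p = 0.011). In the chromatin modifier set, 22 of 60 rose and 4 fell (median 0.44). Kdm2b, a histone demethylase of the Polycomb system, and Hat1, which acetylates new histone H4, rose by 2.58 (SE 0.30, adjusted p = 9.5e-05) and 2.36 (SE 0.29, adjusted p = 0.00011). Smarca5, the motor of the ISWI remodelers, stood at 341, 124, 366 and 256 against 689.7, 610.2 and 687 and fell, with a difference of -1.40 (SE 0.36, adjusted p = 0.0097), a direction that turned when sample 11 was included. Jarid2, a subunit of Polycomb repressive complex 2, differed by -1.24 (SE 0.35, adjusted p = 0.013).

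Of 28 apoptosis genes 4 were higher (14.3%) and 5 lower (17.9%), beside 29.2% and 7.66% of the panel (median 0.11). The inhibitor of apoptosis Birc3 stood at 235, 277, 435 and 261 in P-ERK1/2High and 99.8, 100.2 and 106 in adult samples and rose by 1.51 (SE 0.27, adjusted p = 0.0012). It changed opposite to Bbc3 and Bcl2l11, described above. Of 12 p53 target genes 3 rose (25.0%) and 3 fell (25.0%), beside the same panel shares (median 0.08). The death receptor Tnfrsf10b and Mdm2, the ubiquitin ligase that degrades p53, rose by 2.28 (SE 0.29, adjusted p = 0.00014) and 1.74 (SE 0.24, adjusted p = 0.00022), whereas Gadd45a and Bbc3 were among those that fell.

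In the oxidative stress set, 3 of 10 rose and 1 fell (median 0.34). Srxn1 (sulfiredoxin), which repairs oxidized peroxiredoxins and whose promoter letters were printed above, stood at 3798, 3905, 3388 and 4276 in P-ERK1/2High and 699, 799 and 818 in adult samples, a difference of 2.31 (SE 0.23, adjusted p = 5.3e-05). Hmox1, which degrades heme and is like Srxn1 a target of NRF2, stood at 7819.8, 2482, 6083 and 5989 against 12926, 12079 and 13646 and fell, with a difference of -1.32 (SE 0.37, adjusted p = 0.013). Gstm1, a glutathione transferase, rose by 1.15 (SE 0.25, adjusted p = 0.0041). Hypoxia and glycolysis genes had 2 of 7 higher and 1 lower (median 0.16), and Vegfa, the angiogenic growth factor, and Kdm3a, a histone demethylase induced by hypoxia, rose by 2.21 (SE 0.31, adjusted p = 0.00023) and 1.04 (SE 0.28, adjusted p = 0.011). In the lipid and sterol set, 5 of 15 rose and 2 fell (median 0.16). Fabp5, an intracellular carrier of fatty acids, stood at 8265, 8798, 5600.0 and 10128 against 1559, 1952 and 1618, a difference of 2.24 (SE 0.27, adjusted p = 0.00011), and Ptgs2 and Apoe, given above, belong to the same set in opposite directions. Cytoskeleton and migration genes included Vim and Anxa1, with a median of 0.81. They had 7 of 18 higher (38.9%) and 1 lower (5.56%), beside 29.2% and 7.66% of the panel. Vav1, a guanine nucleotide exchange factor of blood cells, was the member that fell, with a difference of -1.33 (SE 0.35, adjusted p = 0.0099).

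In many of these lists the share called higher was close to the 29.2% of the panel, and such a share is no result about the list. It was 36.7% for chromatin modifiers, 33.3% for DNA repair, phagocytic receptors and lipid and sterol genes, 31.6% for cytokines and chemokines, 30.0% for oxidative stress, 28.6% for hypoxia and glycolysis and 26.3% for both the Toll-like receptor and the MAPK lists. Further below the panel were inhibitory receptors and complement genes at 18.2% each and antigen presentation genes at 0%. The shares called lower in these lists were 18.2%, 0% and 22.2%, beside 7.66% of the panel.

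The balance within some lists depended on the scaling. Under median-of-ratios scaling the genes called lower outnumbered those called higher in the lysosome list (6 against 2), the Toll-like receptor and NF-kB list (5 against 3), the oxidative stress list (2 against 1), the hypoxia and glycolysis list (2 against 1) and the neutrophil list (5 against 1). The same held for p53 targets (4 against 2), inhibitory receptors (3 against 2) and monocyte markers (2 against 0), whose calls were evenly divided before. In the MAPK and PI3K-AKT list 3 were then higher and 3 lower, and in the interferon list 4 and 4. Under quantile normalization lower calls were more numerous in the lysosome (7 against 2), Toll-like receptor (7 against 3), MAPK and PI3K-AKT (4 against 2), oxidative stress (3 against 1), hypoxia (3 against 1), p53 target (4 against 2), inhibitory receptor (4 against 1), monocyte (2 against 1) and complement (1 against 0) lists. Higher and lower calls were then equal in the cytokine (4 and 4), lipid (4 and 4), ribosomal protein (2 and 2) and neutrophil (2 and 2) lists, and 1 apart in the disease-associated (4 and 3), phagocytic receptor (4 and 3) and interferon (5 and 4) lists. With the 6 most stable housekeeping genes, the homeostatic, antigen presentation and apoptosis lists, in which lower calls had been more numerous, held 6, 3 and 9 genes called higher and 0, 0 and 2 called lower. With sample 11 among the adult samples, no list held more than 5 called genes, with 5 in DNA repair, 5 among chromatin modifiers, 3 each among ribosomal protein genes and T and NK cell markers, and 2 each in the autophagy, cytoskeleton, neuron and endothelial lists.

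**Figure D4:**
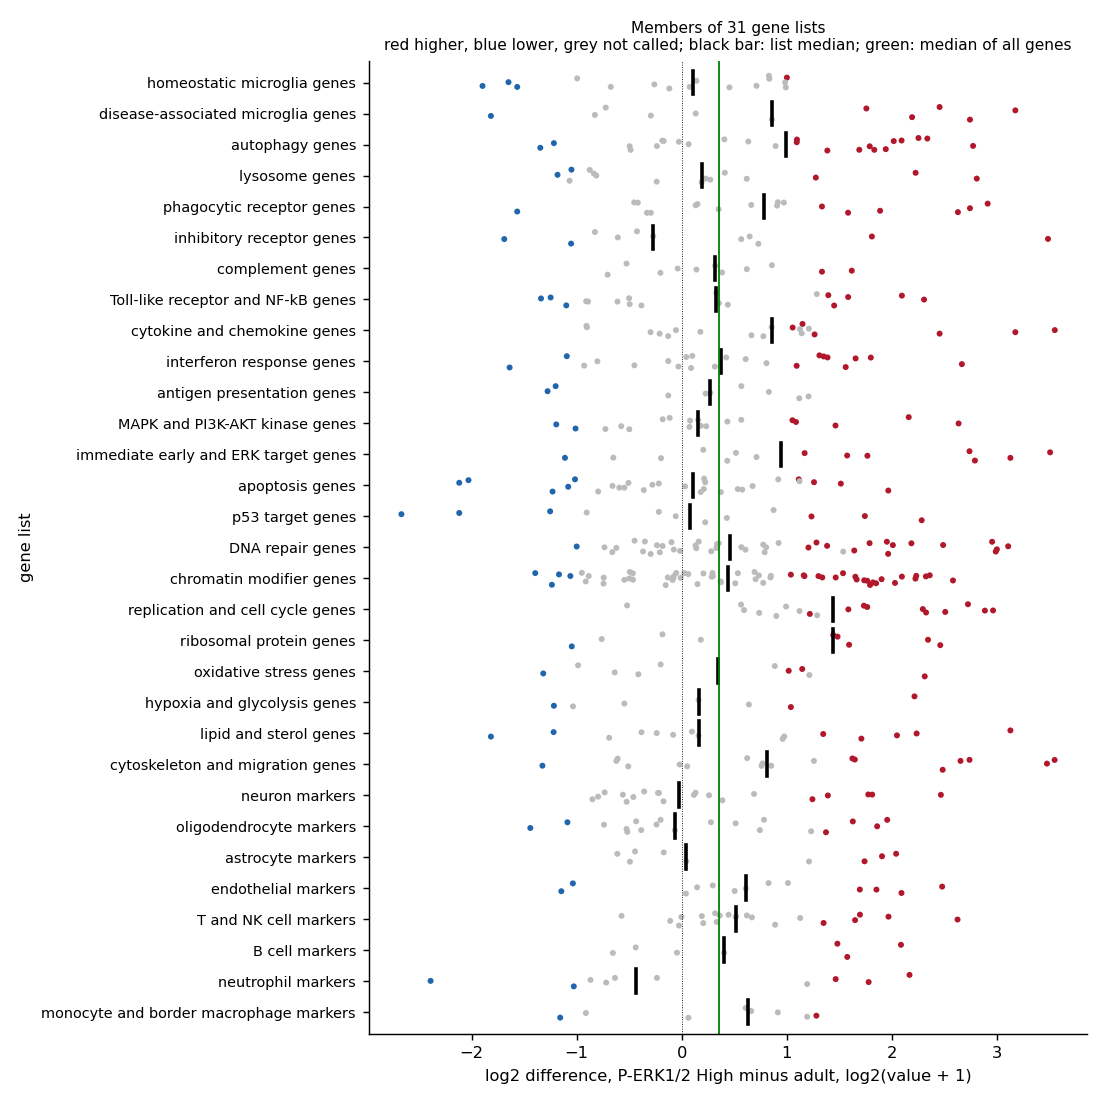
Rows are 31 gene lists and points are their members, at the log2 difference between P-ERK1/2High and adult microglia on the x axis, red where called higher, blue where called lower and grey otherwise. The black bar is the median of a list and the green line the median of all 770 genes at 0.35. Replication and ribosomal protein genes have the medians farthest to the right, and lists such as apoptosis, p53 targets and lysosome spread to both sides.

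Summed values of the markers of another cell type were higher in every P-ERK1/2High sample than in every adult sample for B cells, T and NK cells, monocytes, neurons, endothelium and astrocytes, and overlapped for oligodendrocytes and neutrophils. The part of such markers in the results was not tested. The share of members called higher was below the panel's 29.2% for neurons (25.0%), T and NK cells (23.8%), oligodendrocytes (21.1%) and monocytes (12.5%), and above it for B cells (42.9%), astrocytes (33.3%), endothelium (30.8%) and neutrophils (30.0%). The median log2 differences were -0.03 for neurons, -0.07 for oligodendrocytes, 0.04 for astrocytes and -0.44 for neutrophils, below the panel's 0.35, and 0.40 for B cells, 0.51 for T and NK cells, 0.61 for endothelium and 0.63 for monocytes, above it. Many members were at background, and among those with a mean value of at least 50 the medians were all above the panel's 0.61 in that setting: 1.79 for 4 neuronal, 0.78 for 5 oligodendrocyte, 1.82 for 4 astrocyte, 1.33 for 6 neutrophil, 0.81 for 10 endothelial, 1.83 for 2 B cell and 1.05 for 4 monocyte markers, and 2.62 for Cd3e, the one T and NK cell marker left. A high value in P-ERK1/2High helps a gene to reach that mean, so these medians support no direction. In bulk samples, fewer cells of a type and less RNA per cell cannot be told apart. Neuronal markers summed to 1459.8 to 2002 in P-ERK1/2High and 680.0 to 872 in adult samples, with 5 of 20 called higher. Of these, Rbfox3 (NeuN) stood at 88.9, 124, 265 and 114 and was above background in no adult sample, at least 2.19-fold higher, and Nptx1, a synaptic pentraxin, rose by 2.47 (SE 0.40, adjusted p = 0.000598), while 16 of the 20 exceeded background in no adult sample and 7 of the 20, Gria1 among them, in none of P-ERK1/2High. Astrocyte markers summed to 1482 to 2191 against 539 to 721, with 3 of 9 higher, led by the potassium channel gene Kcnj10 (at least 2.72-fold) and by Sox9, a glial transcription factor with a log2 difference of 1.91 (SE 0.27, adjusted p = 0.00026). Endothelial markers summed to 3352 to 5149 against 1426 to 1742, with 4 of 13 higher and 2 lower, led by Tmem100 and the adhesion gene Esam (at least 2.57-fold and 3.2-fold). Oligodendrocyte markers summed to 739 to 1172 against 490.2 to 897, with 4 of 19 higher, Gal3st1 (at least 2.31-fold) and Gjb1 among them, and 2 lower. The 2 lower genes, Mal and Ugt8a, were above background in none of the 7 samples. Mog was above background in no sample.

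T and NK cell markers summed to 607 to 1505 in P-ERK1/2High and 283 to 561 in adult samples, with 5 of 21 higher. Cd3e, a chain of the T cell receptor complex, stood at 112, 801, 365 and 149.5 against 40.8, 24.4 and 74.1, a log2 difference of 2.62 (SE 0.62, adjusted p = 0.00595), with sample 5 the highest, and Eomes, a transcription factor of cytotoxic lymphocytes, stood at 41.4, 45.7, 87.6 and 49.4, around the adult background of 37.9 to 95.1, which no adult sample exceeded, so that no fold is given. Cd8a and Cd6 were above background in no sample, and 20 of the 21 were above it in no adult sample. B cell markers summed to 252 to 552 against 100.1 to 218, with 3 of 7 higher, led by Tcl1 and Blk (at least 1.75-fold and 2.22-fold). Neutrophil markers summed to 559 to 1531 against 779 to 1302, with 3 of 10 higher and 2 lower, or 1 and 1 without P-ERK1/2High sample 5. Trem3 rose by 2.17 (SE 0.67, adjusted p = 0.021), although its groups overlapped, and Lrg1 was at least 1.64-fold higher. Csf3r, the receptor for G-CSF, fell beside Lcn2, with a difference of -1.03 (SE 0.32, adjusted p = 0.021), and Ly6g was above background in no sample. Monocyte and border macrophage markers summed to 906 to 2049 against 759 to 851, and to 2630 to 3372 in the aged P-ERK1/2Low samples, above both. In no other list of another cell type did the P-ERK1/2Low range lie above that of P-ERK1/2High. Of the 8 monocyte and border macrophage markers, 1 was called higher and 1 lower against adult. The lower one, Ms4a4a, was above background in none of the 7 samples. The one called higher was Cd163, a hemoglobin scavenger receptor, at 75.5, 62.9, 59.5 and 72.2 against 40.8, 24.4 and 19.8, which were under background in every adult sample, so that it was at least 1.09-fold higher.

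Values in the aged P-ERK1/2Low samples divided the named genes into several patterns. Against P-ERK1/2Low, 291 genes were called in P-ERK1/2High (37.8%), 217 higher (28.2%) and 74 lower (9.61%), and against adult, 83 were called in P-ERK1/2Low (10.8%), 62 higher (8.05%) and 21 lower (2.73%). These comparisons share samples with the main one and with each other, and the low depth of P-ERK1/2Low and adult samples against P-ERK1/2High moves with any gene in which those groups lie together. Rala stood at 335, 344, 345 and 410.2 in P-ERK1/2Low, with a log2 difference of 2.75 from P-ERK1/2High (adjusted p = 4.9e-06) and of 0.02 from adult to P-ERK1/2Low. Akt1, Lamp1, Ets2 and Vim likewise differed between the aged groups, by 2.35, 2.59, 3.18 and 2.98, and their P-ERK1/2Low values differed from adult by 0.28, 0.21, 0.32 and 0.49, none of which was called. In a further set, P-ERK1/2Low had also left the adult range. Mmp12 stood at 27424, 28632, 25861 and 33597 in P-ERK1/2Low, called against adult (log2 difference 3.06) and not called against P-ERK1/2High (0.61, adjusted p = 0.42). Ccl2, Anxa1, Ptgs2 and Mcm6 were called higher in P-ERK1/2Low than in adult samples, at 1.97, 1.78, 1.03 and 1.501, and higher again in P-ERK1/2High than in P-ERK1/2Low, at 1.59, 1.77, 2.10 and 1.46. Msr1, Cd72, Nfkbia and Igf1 were called higher in P-ERK1/2Low against adult, at 1.71, 2.32, 1.24 and 1.73, and Gadd45a and Olfml3 lower, at -1.80 and -1.56, and none of these 6 was called between the aged groups.

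Tmem119 and P2ry12 were above background in 1 and in none of the 4 P-ERK1/2Low samples, and no difference from that group is given for them. Tmem119 stood at 54.2, 77.1, 69.5 and 82 and P2ry12 at 50.8, 31.6, 61.5 and 36.9 in P-ERK1/2Low. Tnf was called higher in P-ERK1/2Low than in adult, with values of 1189, 1318, 1190.5 and 1358 and a log2 difference of 1.27, and lower in P-ERK1/2High than in P-ERK1/2Low, by a difference of -1.57. Fos stood at 1115, 1504, 1316 and 1551 in P-ERK1/2Low and was not called between the aged groups (log2 difference -0.03, adjusted p = 0.96).

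**Figure D5:**
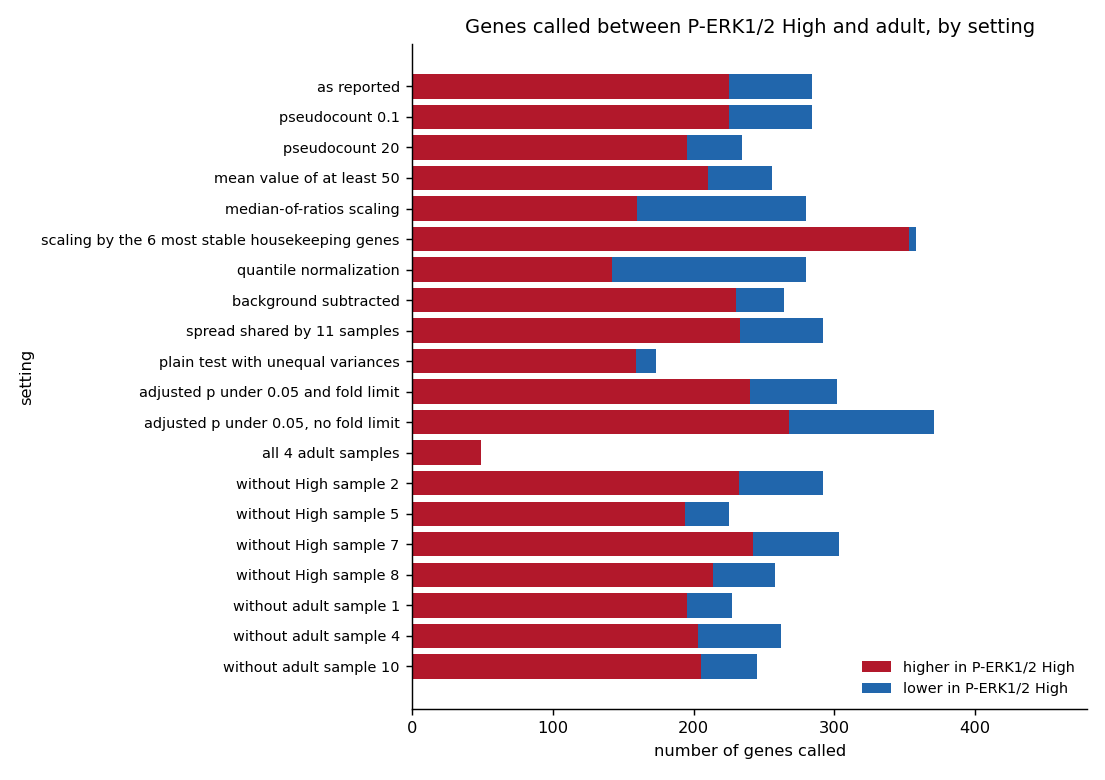
Bars give the number of genes called higher (red) and lower (blue) in P-ERK1/2High against adult microglia for the setting reported here and for each alternative, one setting per row. The total runs from 173 to 371 genes except with all 4 adult samples, where 49 are called, and the share of lower genes moves with the scaling.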

How the data were processed

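Transcripts were measured with the nCounter Neuroinflammation panel (757 endogenous and 13 housekeeping genes, 8 negative and 6 positive controls). The deposited values are signal that the authors normalized in nSolver (version not given in the sources used here). Division by a factor per sample gave whole counts, to within 0.1, for 99.8% of gene values. No background had been subtracted, and all 12 columns were matched to their samples by column name. The test was limma 3.58.1 (R 4.3.3) over 770 genes on values plus 1 in log2, without filter or covariates, which makes folds of low genes smaller than they are. The labels do not say that samples are independent animals, and p-values measure the spread between these samples. On simulated counts the fit recovered 91% of 200 genes changed by 2 log2 units, with 3 false calls. The simulation used the same spread per gene in both groups, equal numbers of raised and lowered genes and the true scaling factors. It held no shift of the housekeeping genes and no outlying sample, so it cannot show the errors that these bring.

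The members and the 31 gene lists were chosen with earlier results of these data known. Genes were named as the 10 largest rises and falls without overlap and above background in a whole group, those the study names, and the 2 largest rises and falls of each list (101 genes). 1 gene so chosen is not reported here. A further 23 were named after their values were seen. Alternatives were other pseudocounts, a filter, 3 scalings, background subtraction, other spreads and thresholds, all 4 adult samples and leaving out each sample. Promoter windows came from RefSeq (GRCm38.p6). Of the gene names, 763 matched current symbols and 7 synonyms.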

Additional observations from a re-analysis of the deposited data

Results flagged for a closer look

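Of the 124 named genes, 9 had 1 P-ERK1/2High sample far from the other 3 by Dixon's test at the 95% level, which by chance marks about 1 in 20 groups of 4. Sample 7 was the distant one in 7 of the 9. It was the lowest in Cd72 (265.01, the others 1444 to 1636), in Ptgs2 (1938, the others 4693 to 5286), in Fos (394, the others 1747 to 2270.1) and in Egr1 (408, the others 808 to 919.9). It was the highest in Tlr2 (286, the others 122 to 141), in Irak2 (287, the others 137 to 142) and in Esam (241, the others 182 to 186). Sample 5 was the lowest in Blm (417, the others 557 to 581) and in Jarid2 (22.9, the others 47.5 to 53.9). Without sample 7, 303 genes were called, 242 higher and 61 lower, and 216 of the 225 higher and 53 of the 59 lower genes were among them.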

How the results depend on the processing

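The count of 284 genes, 225 higher and 59 lower, stayed within 1.5 times in every part with a pseudocount of 0.1, a mean value of at least 50 (256 of 579 genes), a spread shared by 11 samples and an adjusted p under 0.05 with the fold limit. The lower genes numbered 39 with a pseudocount of 20, 34 after background subtraction and 103 at an adjusted p under 0.05 without the fold limit. With median-of-ratios scaling 120 genes were lower. With the 6 most stable housekeeping genes 353 were higher and 5 lower, and with quantile normalization 142 were higher and 138 lower. A plain test with unequal variances called 173 genes, 14 of them lower, and all 4 adult samples called 49 genes, 49 higher and 0 lower. Leaving out one sample at a time gave 225 to 303 genes, 194 to 242 higher and 31 to 61 lower, with 31 lower without P-ERK1/2High sample 5 and 32 without adult sample 1.

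Directions turned in few named genes. The log2 differences became -0.26 for Trem2, -0.32 for Map2k1 and -0.0134 for C1qc with median-of-ratios scaling. They became 0.10 for Tlr2, 0.45 for Csf1r, 0.42 for Tyrobp, 0.22 for Sqstm1, 0.59 for Braf, 0.67 for C1qa and 0.41 for Tnf with the 6 housekeeping genes. They became -0.97 for Spp1, -0.63 for Cd68, -0.74 for Trem2, -0.43 for Egr1, -0.84 for Map2k1, -0.13 for C1qb and -0.55 for C1qc with quantile normalization. With all 4 adult samples they were -0.0338 for Trem2, 0.0213 for Ikbkg and 0.70 for Smarca5. With one sample left out at a time C1qa ran from -0.19 to 0.14 and Trem2 from -0.047 to 0.29. The causes were not tested. Of the 20 settings, 106 higher and 2 lower genes were called in all but the one with all 4 adult samples, and 33 of the higher genes in that one too.

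A count model had been planned as a further alternative and was not run. The 2 groups came from animals of different ages, so no paired analysis of them was possible. The labels do not say whether P-ERK1/2High and P-ERK1/2Low samples came from the same animals, and these were compared as unpaired. The adult samples limit the depth: 202 genes exceeded background in none of them.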
